A study of Sus scrofa with 18 samples.

Results

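The miR-181 family was followed through 18 small RNA libraries of backfat, the fat layer under the skin of the back, made from Italian Large White pigs in 2 classes of backfat deposition, high (9 libraries) and low (9 libraries). The family was taken as every mature microRNA (miRNA) of the count table named miR-181a, miR-181b, miR-181c or miR-181d, with or without an arm suffix, counting a read sequence 1 time within a mature miRNA. This gave 4 of the 240 mature miRNAs listed, ssc-miR-181a, ssc-miR-181b, ssc-miR-181c and ssc-miR-181d-5p (the prefix marks the pig and is left out below), from 6 hairpin precursors. They held 613 of 16636 distinct read sequences. The table listed 298 sequences under miR-181a, 162 under miR-181b, 120 under miR-181c and 38 under miR-181d-5p, and no other arm of these hairpins.

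There were 4 females and 5 castrated males among the high animals and 5 females and 4 castrated males among the low animals. Every animal was of the same breed, was kept in 1 environment on 1 diet, weighed 150 to 160 kg and was 233 to 250 days old. No treatment, transgene or deletion is given for any animal, so the contrast is between pigs that differ in fat deposition and not between treatments. Each library carried its own animal number and was treated as 1 animal. Library codes fell into 4 runs of consecutive numbers, and the run AC485 to AC488 held 1 high and 3 low libraries.

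miRNAs are short RNAs that guide Argonaute proteins to messenger RNAs, mostly through base pairing of the seed, bases 2 to 8 from the 5′ end, and lower the output of those messages. A hairpin can yield a 5′ and a 3′ arm, and Drosha and Dicer set where each arm starts and ends. The miR-181 family is made from paired hairpins, miR-181a with miR-181b in 2 clusters and miR-181c with miR-181d in another, and is best known for roles in T cell development, in vascular endothelium and in blood cell differentiation.

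The 4 annotated sequences are shown because their differences decide which read can be assigned to which member. They were read from the exact matches in the deposited table, 5′ to 3′ in DNA letters, with the seed in capitals.
miR-181a: aACATTCAacgctgtcggtgagtt
miR-181b: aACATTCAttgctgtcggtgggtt
miR-181c: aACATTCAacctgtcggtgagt
miR-181d-5p: aACATTCAttgttgtcggtgggtt

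All 4 members had the seed ACATTCA, and among the 225 mature miRNAs with an exact form in the table only these 4 had it. Counting from 1 at the 5′ end, miR-181b differed from miR-181a by A9T, C10T and A21G, and miR-181d-5p differed from miR-181b by C12T alone. miR-181c was the miR-181a sequence without its base at position 11, over its own length of 22 bases. In the RefSeq annotation of the assembly Sscrofa11.1 the neighbours by name were MIR181A-1 with MIR181B-1, which overlap the uncharacterised gene LOC110255652, MIR181A-2 with MIR181B-2, which overlap the nuclear receptor gene NR6A1, and MIR181C with MIR181D. The 2 hairpins of miR-181a give the same mature sequence, so counts of miR-181a could not be divided between the clusters.

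Reads were seldom ambiguous between members. Only 5 sequences were listed under more than 1 mature miRNA, all under miR-181b and miR-181d-5p, and they held 0.271% of miR-181b counts and 2.25% of miR-181d-5p counts. The base that separates miR-181d-5p from miR-181b was also compared with the change of the same base where no family member explains it. In miR-181a, which has the base of miR-181b at that position, C12T made up 0.0796% ± 0.017 of counts (SD, n = 18), at most 0.133% in any library. miR-181d-5p counts were 12.1% ± 2.22 of miR-181b counts (SD, n = 18), at least 8.78% in every library.

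The family held 1.95% ± 0.287 of all counts (SD, n = 18), from 1.23% to 2.39%, out of 9601510 to 34588252 counts per library. miR-181a was the major member. It ranked 10 of the 226 mature miRNAs tested, with a mean level of 17360 ± 2674 CPM (SD, n = 18), which is counts per 1000000 after scaling between libraries. miR-181c had 1101 ± 222 CPM and rank 52, miR-181b had 925.3 ± 134.8 CPM and rank 53, and miR-181d-5p had 110 ± 14.6 CPM and rank 110. Mature miRNAs are of nearly equal length, so these levels needed no length scaling, but how well each sequence is captured by the library kit was not measured.

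Of family counts, miR-181a held 89.0% ± 0.875, miR-181c 5.68% ± 0.962, miR-181b 4.78% ± 0.539 and miR-181d-5p 0.575% ± 0.0994 (SD, n = 18 each). miR-181a was the highest and miR-181d-5p the lowest member in 18 of 18 libraries. The middle of the order was not the same in all libraries. miR-181b was above miR-181c in 5 of 5 high castrated males and below it in the other 13 libraries, the 4 high females and the 9 low animals. Over all 18 libraries the means of miR-181b and miR-181c differed by less than their summed SDs. Those SDs are between animals, so this is not a test of the order within a library. The smallest number of reads behind any member in 1 library was 924, for miR-181d-5p, so counting error was small beside the spread between animals.

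The tissue label was compared with marker miRNAs. The mesenchyme and fat list (miR-143-3p, miR-145-5p, miR-199a-3p, miR-199a-5p and miR-214) summed to 138700 to 247300 CPM. Most of this was miR-143-3p, with a mean of 193500 CPM against 203200 CPM for the list. The other list members averaged 594.5 to 6889 CPM each. Markers of other cells were lower than the list sum, at 12690 to 41480 CPM for the 2 endothelial miR-126 arms. They were 2541 to 11050 CPM for 4 red cell miRNAs and 2264 to 5490 CPM for 5 leukocyte miRNAs. The 5 skeletal muscle miRNAs summed to 46.9 to 208 CPM and 4 neural miRNAs to 81.1 to 158 CPM. Of the epithelial list only miR-205 was listed, and the liver marker miR-122 reached 45.5 CPM and was 0 in some libraries of both classes.

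The comparison of high with low backfat is the contrast of the study's title. miR-181c was lower in the high class, while miR-181a and miR-181b were at similar levels in both, and miR-181d-5p had a smaller difference in the direction of miR-181c. In the high libraries the miR-181c level was 727.1 CPM at the lowest, 977.2 at the median and 1088 at the highest. In the low libraries it was 1018, 1239 and 1623 CPM. Of the 9 high libraries, 8 were below the lowest low library and 9 were below the low median, so the groups met only at their edges. miR-181c fell by 0.39 ± 0.10 on the log2 scale (SE, edgeR's quasi-likelihood test, sex in the model, adjusted p = 0.039 over 226 miRNAs). The fit called 8 mature miRNAs, 3.54% of those tested, 5 of them lower (2.21%) and 3 higher (1.33%). DESeq2's Wald test also called miR-181c (adjusted p = 0.014), among 13 called lower (5.75%) and 9 higher (3.98%).

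The call for miR-181c was near the threshold and depended on the fit. It was lost in 16 of 18 fits that left out 1 library (log2 fold change -0.43 to -0.34, adjusted p 0.0369 to 0.124), all but those without high replicate 3 or low replicate 1. With the run of library codes in the model it was -0.36 with adjusted p = 0.0855, and without the 4 libraries of the run AC485 to AC488 it was -0.38 with adjusted p = 0.253. Within the 4 runs the class difference of mean log2 CPM was -0.77, -0.36, -0.29 and -0.04, the last in the run U966 to U969 with 2 libraries a class.

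**Figure D1:**
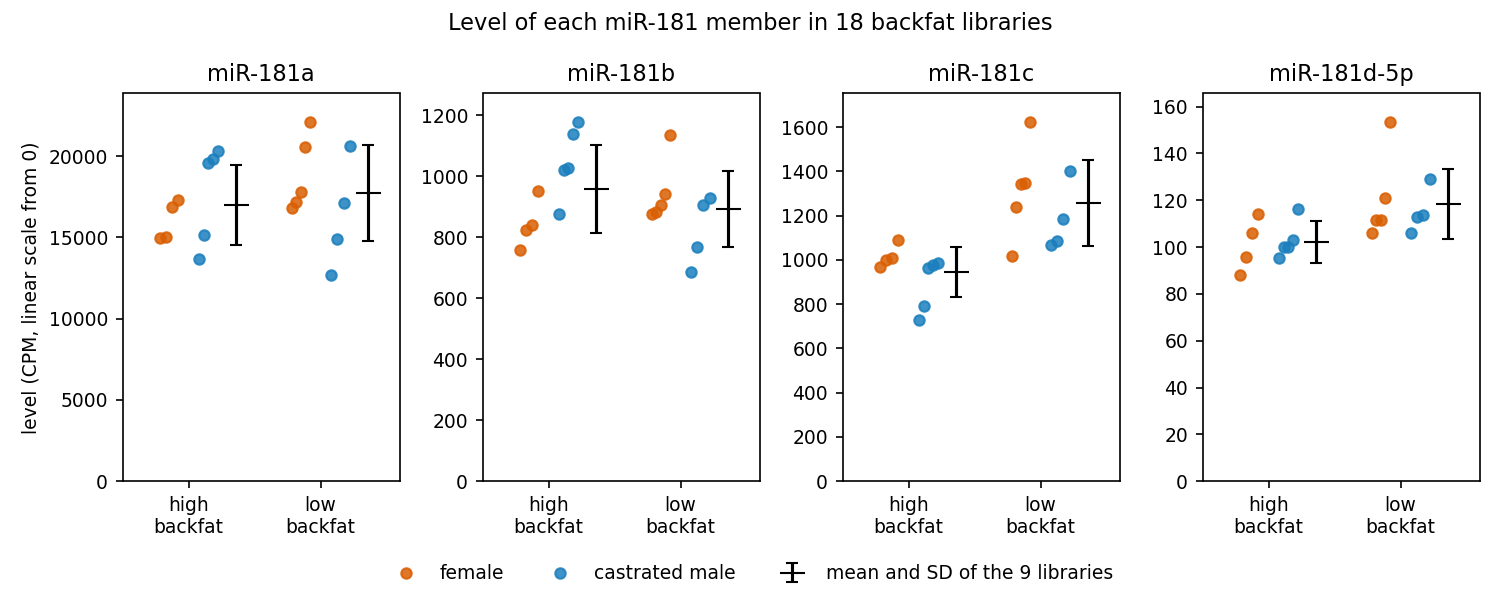
The points give the level of each miR-181 member in CPM (vertical axes, linear from 0) in the 9 high and 9 low backfat libraries, with females in orange and castrated males in blue, and the black bars are mean and SD. For miR-181c 8 of 9 high libraries lie below the lowest low library at 1018 CPM, while the classes overlap for miR-181a and miR-181b.

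miR-181d-5p comes from a separate hairpin in the cluster of miR-181c. It ranged from 88.2 to 116 CPM in the high libraries with a median of 100 CPM. In the low libraries it ranged from 106 to 153 CPM with a median of 113 CPM. Of the high libraries 7 of 9 were below the lowest low library. Its log2 fold change was -0.21 ± 0.10 and did not pass the test (edgeR, adjusted p = 0.195). Without low replicate 5, the highest library, the other low libraries reached 129 CPM.

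miR-181a ranged from 13700 to 20350 CPM in the high libraries and from 12670 to 22090 CPM in the low libraries, with medians of 16850 and 17170 CPM. The high range lay inside the low range. Its log2 fold change was -0.06 ± 0.11 (edgeR, adjusted p = 0.771), and it was 0.04 with limma on the deposited normalised counts. miR-181b ranged from 758 to 1178 CPM in the high libraries and from 687 to 1136 CPM in the low libraries, and its log2 fold change was 0.09 ± 0.11 (edgeR, adjusted p = 0.621). Neither passed the test. In bulk tissue, fewer cells of a type and less of an RNA per cell cannot be told apart.

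Ratios between members were formed within each library, so scaling between libraries does not enter them. The summed counts of miR-181c and miR-181d-5p were lower in the high class relative to those of miR-181a and miR-181b. (miR-181c + miR-181d-5p) was 4.95% of (miR-181a + miR-181b) in the lowest high library, 5.68% at the median and 6.99% in the highest, against 6.26%, 7.21% and 8.83% in the low class. All 9 high libraries were below the low median, and 6 were below the lowest low library. The mean log2 ratio was 0.34 lower in the high class, and the ratio fell by 20.9% (exact two-sided permutation test, 9 against 9, p = 0.0023, adjusted p = 0.00576 over 5 ratios). The ratio of miR-181c to miR-181a fell by 21.4% (exact permutation p = 0.00206, adjusted p = 0.00576), with medians of 6.97% for low and 5.31% for high animals.

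Both falls passed the threshold in each of the 18 analyses that left out 1 library (exact permutation, adjusted p 0.00339 to 0.0116). Because both ratios rest mostly on miR-181c and miR-181a, these are not independent results. Within the 4 runs the log2 ratio of the pairs was lower in the high class by 0.49, 0.47, 0.35 and 0.16. The other 3 ratios did not pass after adjustment. miR-181b to miR-181a was 0.16 higher on the log2 scale in the high class (exact permutation p = 0.0366, adjusted p = 0.061, higher than the low median in 7 of 9). miR-181d-5p to miR-181a was lower by 0.15 (exact permutation adjusted p = 0.218), and miR-181d-5p to miR-181c was higher by 0.20 (exact permutation adjusted p = 0.0806). The ratio of miR-181d-5p to miR-181b, added after the values were seen, was 0.31 lower (exact permutation p = 0.00625, not adjusted), with 8 of 9 high libraries below the low median.

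**Figure D2:**
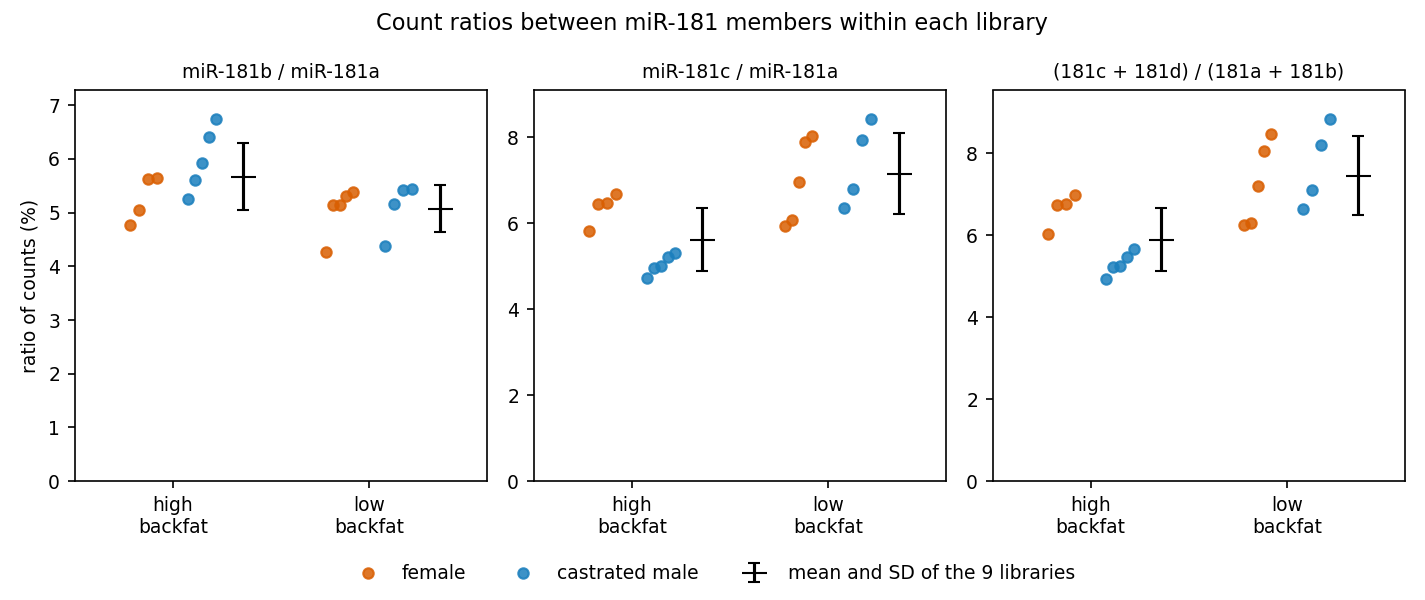
Each point is 1 library's ratio of counts between members in percent (vertical axes, linear from 0) by backfat class, with females in orange and castrated males in blue, and the black bars are mean and SD of 9 libraries. For the ratio of the pairs (right panel) the 5 high castrated males lie at 4.95% to 5.68%, below every other library, while high and low females overlap.

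Marker miRNAs were set beside these ratios. The 5 skeletal muscle miRNAs summed to 46.9 to 127 CPM in the high class (median 66.7). In the low class they summed to 83 to 208 CPM (median 139.1). All 5 had negative log2 fold changes, with none called (median -1.40, against -0.04 over all 226 miRNAs). That median was miR-133b, and miR-206, miR-133b and miR-1 averaged only 0.354, 1.75 and 2.98 CPM. Most of the sum came from miR-133a-3p (mean 68.9 CPM, log2 fold change -1.10 ± 0.37) and miR-499-5p (34.4 CPM, -0.43 ± 0.18). The mesenchyme and fat list had 5 of 5 negative, with miR-199a-3p and miR-199a-5p called lower (edgeR, adjusted p = 0.039 each). Their log2 fold changes were -0.51 ± 0.12 and -0.38 ± 0.10. No miRNA was called with age as a covariate, with limma or without the run AC485 to AC488, so these calls depended on the fit. Leukocyte (median 3601 against 3424 CPM), endothelial (31830 against 30390 CPM) and red cell markers (4303 against 3485 CPM) overlapped between the classes. So did the 4 neural miRNAs, with a median of 120.9 CPM in the high and 105.9 CPM in the low class. The part of the muscle and mesenchymal markers in the fall of the ratio was not tested.

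The class difference was then compared between the sexes. miR-181c had nearly the same log2 fold change in females, -0.37 ± 0.15, and in castrated males, -0.41 ± 0.14 (edgeR, adjusted p = 0.33 and 0.149). The estimates of miR-181a and miR-181b had opposite signs in females and castrated males. miR-181b had -0.17 ± 0.14 in females and 0.35 ± 0.14 in castrated males (edgeR, adjusted p = 0.622 and 0.149). miR-181a had -0.24 ± 0.15 and 0.12 ± 0.15. miR-181d-5p had -0.26 ± 0.14 and -0.16 ± 0.14. Of all 226 miRNAs edgeR called 0 in females, where 25 had an unadjusted p under 0.05 and DESeq2 also called 0, and 6 (2.65%) in castrated males, where DESeq2 called 7 higher and 6 lower. No family member was among these calls. The difference between the sexes was 0.52 ± 0.19 for miR-181b (edgeR, adjusted p = 0.348). It was 0.35 ± 0.22 for miR-181a (adjusted p = 0.569) and -0.04 ± 0.20 for miR-181c (adjusted p = 0.937). Over all 226 miRNAs edgeR called 0 for this difference, with 25 at an unadjusted p under 0.05, and DESeq2 called 3, all lower and none a member.

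**Figure D3:**
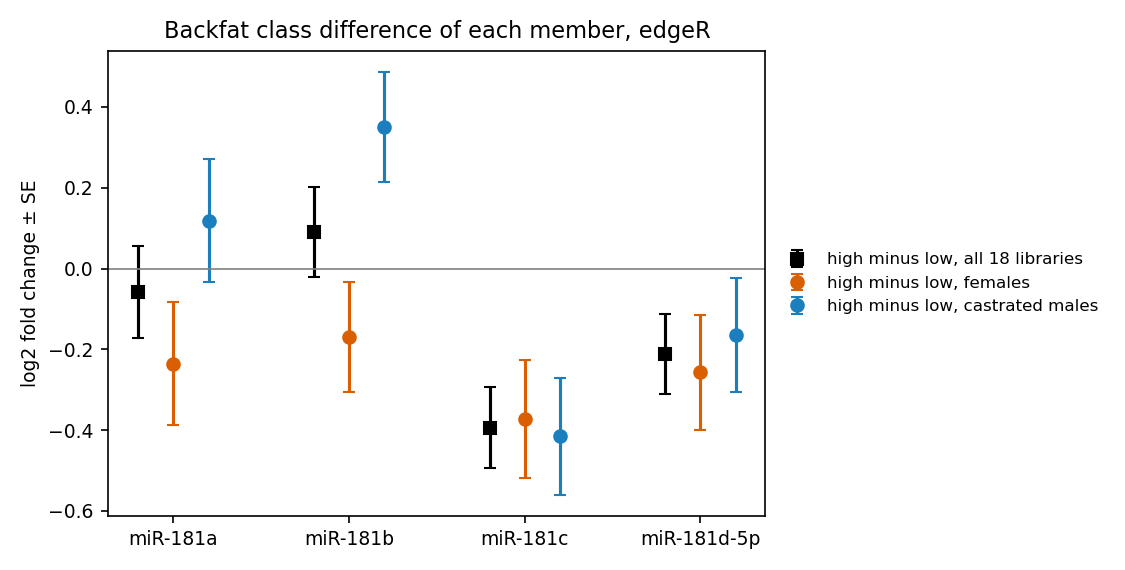
The points are edgeR log2 fold changes of high against low backfat with SE (vertical axis) for the 4 members, in all 18 libraries (black), in females (orange) and in castrated males (blue). miR-181c lies near -0.4 in all 3, while miR-181a and miR-181b lie below 0 in females and above 0 in castrated males.

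The class difference of the ratios was also compared between the sexes, a test chosen after its values were seen. Among castrated males the 5 high animals had (miR-181c + miR-181d-5p) at 4.95, 5.23, 5.25, 5.47 and 5.68% of (miR-181a + miR-181b), and the 4 low animals had 6.65, 7.11, 8.22 and 8.83%, with no overlap. Among females the 4 high animals had 6.03, 6.74, 6.76 and 6.99% and the 5 low animals 6.25, 6.3, 7.21, 8.07 and 8.47%, so high females lay within or close to the low range. The log2 difference was -0.53 in castrated males (exact permutation p = 0.00794, the smallest that 126 splits allow, adjusted p = 0.0397 over 10 tests) and -0.12 in females (exact permutation p = 0.325). Their difference was -0.41 (exact permutation of sex labels within class, 15876 splits, p = 0.0196, adjusted p = 0.0496). It passed in 6 of 18 analyses that left out 1 library (exact permutation, adjusted p 0.0213 to 0.138). It did not pass without the run AC485 to AC488 (-0.30, adjusted p = 0.357) or with exact matches only (-0.23, adjusted p = 0.664).

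Castrated males of both classes shared 3 runs, and in each the high animals had the lower ratio of the pairs, by 0.60, 0.65 and 0.43 on the log2 scale with 1 high and 1 or 2 low animals per run. In females the same difference in their 3 shared runs was -0.38, -0.04 and 0.11. The muscle markers followed the same split, with 46.9 to 66.7 CPM in high and 97.2 to 208 CPM in low castrated males and an overlap in females (67.7 to 127 and 83 to 206 CPM). Leukocyte markers averaged 2884 CPM in high and 3408 CPM in low females, and 4492 and 3847 CPM in high and low castrated males. Endothelial markers averaged 25890 and 30030, then 35840 and 32600 CPM in the same order. The mesenchyme and fat list averaged 191500 and 215500, then 204200 and 198300 CPM. Red cell marker means went the other way, with 4257 and 3748, then 4649 and 5661 CPM. Their medians did not, with 4171 and 3485, then 4582 and 4226 CPM, and the highest low castrated male had 11050 CPM. These lists overlapped between the classes within each sex. The part of any list in the sex difference was not tested.

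No member was called between castrated males and females with class in the model. The log2 fold changes were -0.03 ± 0.11 for miR-181a, 0.05 ± 0.11 for miR-181b, -0.17 ± 0.10 for miR-181c and -0.02 ± 0.10 for miR-181d-5p (edgeR, adjusted p 0.613 to 0.94). Of the 226 miRNAs 0 were called by edgeR and 0 by DESeq2, and 19 had an unadjusted p under 0.05, none of them a member.

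The members differed from each other in where their reads ended. The annotated 24-base form of miR-181a held only 1.94% ± 0.265 of its counts, and 48.6% ± 2.51 lay in the form 1 base shorter and 35.2% ± 1.7 in the form 2 bases shorter (SD, n = 18). miR-181b had 30.6% ± 1.63 and 30.1% ± 3.21 in the corresponding forms and 12.2% ± 1.64 in the annotated form. miR-181d-5p had 37.4% ± 2.4 in its 23-base form and 28.7% ± 2.67 in the annotated 24-base form. miR-181c was the reverse case, with 46.9% ± 2.3 in the annotated 22-base form and 32.4% ± 1.81 in a form 1 base longer.

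These forms are shown because, beside the annotated sequences, they held the largest shares of each member's counts.
miR-181a, 23 bases: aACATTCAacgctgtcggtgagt
miR-181a, 22 bases: aACATTCAacgctgtcggtgag
miR-181b, 23 bases: aACATTCAttgctgtcggtgggt
miR-181b, 22 bases: aACATTCAttgctgtcggtggg
miR-181c, 23 bases: aACATTCAacctgtcggtgagtt
miR-181d-5p, 23 bases: aACATTCAttgttgtcggtgggt

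In all 4 members the leading 22- and 23-base forms kept the seed, and the 3′ ends, not the seeds, set them apart. The 5′ start was at the annotated base in 99.9% of counts of miR-181a, miR-181c and miR-181d-5p. miR-181b had a second start 1 base inside, in 1.28% ± 0.221 of its counts against 0.0146% ± 0.00606 for miR-181a (SD, n = 18), and the ranges over libraries (0.952% to 1.81% and 0.00432% to 0.0246%) were far apart. Such reads carry a seed shifted by 1 base.

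**Figure D4:**
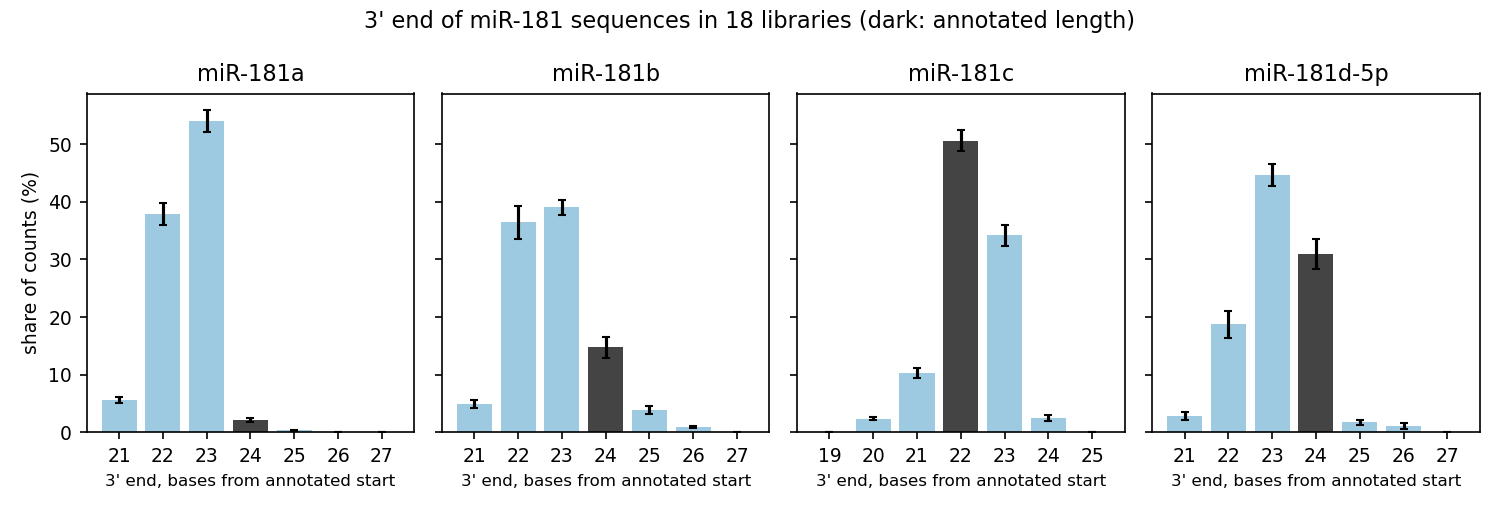
The bars give the mean share of each member's counts (vertical axis, percent, with SD over 18 libraries) by the position of the 3′ end counted from the annotated start (horizontal axis, bases), and the dark bar is the annotated length. miR-181a, miR-181b and miR-181d-5p peak at 23 bases, 1 base short of the annotation, and miR-181c peaks at its annotated 22 bases.

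Ends with a base that the hairpin does not encode also differed between members. A substituted A as the last base was found in 11.2% ± 0.89 of miR-181b counts among high and 12.1% ± 1.21 among low animals, in 11.3% ± 0.887 and 12.6% ± 1.97 of miR-181d-5p counts, in 2.48% ± 0.115 and 2.47% ± 0.279 of miR-181a counts and in 1.28% ± 0.18 and 1.46% ± 0.115 of miR-181c counts (SD, n = 9 each). miR-181b and miR-181d-5p, which come from different clusters and differ at 1 base, thus both had a share several times that of miR-181a and miR-181c. At base 21 of miR-181b and miR-181d-5p a G can be replaced by A (G21A, 2.19% and 1.06% of counts). The corresponding base of miR-181a and miR-181c is already A, so such an end is not counted there. In miR-181b the substituted last base was A in 11.7% of counts, G in 0.865%, T in 0.728% and C in 0.0713% (means, n = 18). For a single read an added base and a sequencing error cannot be told apart, and the cause of the A ends was not tested. Between the classes no difference passed after adjustment over the 4 members, the smallest being miR-181c (exact permutation p = 0.0211, adjusted p = 0.0844).

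The form of miR-181b with 1 further T was listed only under the miR-181b-2 hairpin. A T added to a miR-181b-1 read would give the same sequence, so the hairpin of origin cannot be told apart.
miR-181b, 25 bases: aACATTCAttgctgtcggtgggttt
It held 2.91% ± 0.529 of miR-181b counts (SD, n = 18), and 2.81% ± 0.273 among high against 3% ± 0.708 among low animals (SD, n = 9 each, exact permutation p = 0.577).

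The most frequent internal mismatches varied in share between libraries. In miR-181a the change C3T ranged from 0.667% to 4.57% of counts and A2T from 0.00458% to 2.96% over the 18 libraries, and the other 3 members had mean shares of 1.05% to 2.19% for C3T and 1.03% to 1.22% for A2T. Both positions lie in the seed. Their class means in miR-181a were 2.12% and 2.07% for C3T and 1.33% and 1.26% for A2T, so the spread between libraries was far larger than the difference between classes.

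The makeup of each member by form did not differ detectably between the classes. Of 20 tests of shares (exact, shorter or longer, with 1 or 2 mismatches, and annotated start, for each member) 0 passed after adjustment (exact permutation, adjusted p 0.539 to 0.974), and 1 had an unadjusted p under 0.05, the share of miR-181c forms with 2 mismatches (0.042% ± 0.0502 against 0.081% ± 0.0221, SD, n = 9 each). Mean length of miR-181a was 22.557 bases in the high and 22.534 bases in the low class (exact permutation p = 0.0428, adjusted p = 0.137).

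Single sequence forms were tested in a fit over 7330 table entries, of which 15 (0.205%) were called, 0 of them among 384 family entries. An unadjusted p under 0.05 (edgeR) was found for 22 of the 384 family entries and for 684 of all 7330 entries. Among the 1919 entries averaging 10 CPM or more, 56 (2.92%) were called, again 0 of the family. The forms of miR-181c leaned the way of their sum. Of its 22 tested sequences 18 had a negative log2 fold change, with a median of -0.39, and the annotated form had -0.38 ± 0.12 (edgeR, adjusted p = 0.207). miR-181d-5p had 13 of 15 negative with a median of -0.18, miR-181a 73 negative and 64 positive with a median of -0.05 and miR-181b 13 of 40 with a median of 0.05. Over all miRNAs 3161 of 6140 sequences were negative, with a median of -0.02. The forms of 1 member share their precursor and are not independent.

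DESeq2's Wald test called 258 of the 7330 entries (3.52%), 9 of them in the family, which were 5 distinct sequences. These included a miR-181c form with a terminal A in place of T, aacattcaacctgtcggtgaga, at 5.39 to 14.5 CPM in the high and 11.4 to 16.5 CPM in the low class (DESeq2 log2 fold change -0.49 ± 0.15, adjusted p = 0.0351, and edgeR adjusted p = 0.165). The other 4 were miR-181a forms, all higher in the high class, at medians of 0.53 to 5.78 CPM in either class. For 1 of them, a form with the internal mismatch C7G, 4 high libraries stood apart, high replicate 6 at 55.9 CPM, high replicate 8 at 50.2 CPM, high replicate 1 at 11.3 CPM and high replicate 3 at 10.4 CPM, while the other 5 had at most 1.26 CPM and the low libraries at most 1.2 CPM. The same mismatch made up 0.148% of miR-181a counts, 0.109% of miR-181b counts and 0.114% of miR-181c counts on average in the high class.

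Across the 18 libraries log2 CPM of miR-181a and miR-181b had Pearson r = 0.72 (permutation p = 0.00076, adjusted p = 0.00456 over 6 pairs, Spearman rho = 0.61, permutation p = 0.00877). miR-181c and miR-181d-5p had r = 0.59 (permutation p = 0.0107, adjusted p = 0.0321, rho = 0.71, permutation p = 0.00131). These are the pairs that share hairpin clusters, and they had the largest r of the 6, but the differences between pairs were not tested. Without the 2 libraries farthest from the median r was 0.56 and 0.75.

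The relations depended on the libraries used. In the run U134 to U139, the only one with 6 libraries, r was -0.03 for miR-181a with miR-181b and 0.53 for miR-181c with miR-181d-5p, so the first relation did not hold there. After removal of class, sex and run means the residual r was 0.78 and 0.23. Pairs from different clusters had residual r of 0.66 (miR-181a with miR-181c), 0.31 (miR-181b with miR-181d-5p), 0.28 (miR-181b with miR-181c) and 0.09 (miR-181a with miR-181d-5p). The order of the pairs by r thus did not hold on residuals. Over all 18 libraries miR-181a with miR-181c had r = 0.52 (permutation p = 0.0263, adjusted p = 0.0526, rho = 0.37), and in the run U134 to U139 r = 0.90. The other 3 pairs had r of -0.05 to 0.24 over all libraries (adjusted permutation p 0.512 to 0.846).

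Outside the family, the miRNAs whose log2 CPM was most like that of each member over the 18 libraries were different for each. For miR-181c they were let-7c (r = 0.75), miR-130a (r = 0.71) and miR-136 (r = 0.71), and for miR-181d-5p miR-195 (r = 0.73), miR-374a-5p (r = 0.71) and miR-101 (r = 0.66). For miR-181b they were miR-7139-5p (r = 0.62), miR-182 (r = 0.61) and let-7e (r = 0.59), and for miR-181a miR-148a-5p (r = 0.53), miR-28-5p (r = 0.51) and miR-139-3p (r = 0.45). These were picked as the highest of all tested miRNAs and share library scaling, so they are a description only.

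miRNAs with textbook roles in fat cell formation gave the setting. Of 12 tested pro-adipogenic miRNAs 4 had positive and 8 negative log2 fold changes in the high class, with none called and a median of -0.10. Of 10 tested anti-adipogenic miRNAs 4 were positive and 6 negative, with a median of -0.08. The 1 called was miR-222, which represses the cell cycle inhibitor p27, higher by 0.90 ± 0.22 (edgeR, adjusted p = 0.039). Its call was lost with age as a covariate, with limma and without the run AC485 to AC488, where no miRNA was called. miR-130a, which targets the fat cell regulator PPARG and was among the miRNAs most like miR-181c, had -0.41 ± 0.13 (adjusted p = 0.0722). Of all tested miRNAs 105 were positive and 121 negative.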

How the data were processed

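Backfat RNA of 18 pigs was sequenced with a small RNA kit (single-end, 100 bases, 2 libraries to a lane), per the labels' protocols. The deposited files are raw counts per read sequence, hairpin and mature miRNA, and the authors' normalised signal, which equals the deposited count divided by 1 factor per library (0.464 to 1.93), as found by dividing the tables. The submitters' processing notes list Bowtie 0.12.7, HTSeq, DESeq2 1.4.5 and the build Sscrofa10.2. Trimming and mismatch settings were not given in the sources used here. A further 2 value columns match no sample and were not used. No genome was used, so no coordinates are given.

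Counts were summed per mature miRNA, each sequence once at its highest listed count, over library totals of distinct sequences (9601510 to 34588252). The main test was edgeR 4.0.16 (R 4.3.3), a quasi-likelihood F test after filterByExpr (minimum count 10, grouped by class and sex, or by class for single entries) and TMM scaling, with sex as a covariate, Benjamini-Hochberg adjustment over all features and a threshold of 0.05. DESeq2 1.42.0 and limma 3.58.1 (log2 of the deposited normalised count plus 1) were alternatives. Ratios and shares used exact two-sided permutation, and relations used 100000 resamples (SciPy 1.17.1, NumPy 2.4.6, pandas 2.3.3, Python 3.11.15). Figures used Matplotlib 3.10.9. Replicate numbers only name libraries and pair nothing. On simulated counts the main test recovered 9 of 10 miRNAs changed by 1 on the log2 scale, with 1 false call among 223. It recovered 11.2% of single entries changed by 1 among 6246. No change under 1 was simulated, so recovery of differences as small as those of the members was not measured.

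The members and the marker and fat cell lists were chosen with earlier results of these data known. Named sequences are the 5 most abundant per member and those called, and named miRNAs outside the family are the 3 with the highest r per member and list members. The ratio of miR-181d-5p to miR-181b, the tests of the sex difference in ratios, mean lengths, terminal A shares, the single-T form and miR-222, miR-199a and miR-205 by name were chosen after their values were seen.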

Additional observations from a re-analysis of the deposited data

Results flagged for a closer look

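In 58 groups of 9 libraries a gap test marked a highest or lowest library that lay far from the others, and chance marks about 1 in 20 such groups. The miR-181d-5p level of low replicate 5 was 153.3 CPM, with the next low library at 128.9 CPM. The log2 ratio of miR-181d-5p to miR-181c in low replicate 6 was -3.94, with the next at -3.48.

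The other marked values were shares of sequence forms. Shorter or longer forms made up 82.5% of miR-181a counts in high replicate 5 and 83.4% in low replicate 6, the lowest of their classes. Forms with 1 mismatch made up 14.9% of miR-181a counts and 12.5% of miR-181c counts in low replicate 6, the highest of its class, and forms with 2 mismatches made up 2.61% of miR-181b counts in high replicate 7. All 7 values came from libraries of the run U134 to U139, and a part of the run in them was not tested.

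The class difference of the log2 ratio of miR-181c to miR-181a differed between castrated males and females by -0.41 (exact permutation p = 0.0198, adjusted p = 0.0496), and that of the ratio of the pairs also by -0.41 (exact permutation p = 0.0196, adjusted p = 0.0496). Among castrated males all 5 high animals were below all 4 low animals for both ratios. Each difference lost its call in 12 of 18 analyses that left out 1 library. Both ratios rest mostly on miR-181c and miR-181a counts, so the differences are not independent.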

How the results depend on the processing

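Of 353 values under alternatives other than leaving out 1 library, 317 kept their direction and side of the threshold. The falls of the ratios miR-181c to miR-181a and of the pairs did so in every alternative run. The miR-181c level stayed called with DESeq2's Wald test, a mean of at least 10 CPM, no sex term, uniquely listed sequences or a filter by class. It was lost with DESeq2 size factors (-0.38), no filter (-0.37), age (-0.40) or library run (-0.36) as a covariate, without the run AC485 to AC488 (-0.38), with exact and length forms only (-0.37), limma (-0.30), all listings summed (-0.37) and without high replicates 6 and 8 (-0.33).

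The ratio miR-181b to miR-181a passed with splits within sex (0.157) and length forms (0.17), and was -0.0638 with exact forms, where miR-181d-5p to miR-181a passed (-0.34). The sex differences of the ratios miR-181c to miR-181a and of the pairs were lost without the run (-0.31 and -0.30) and with exact forms (-0.17 and -0.23). With exact forms the r of miR-181a with miR-181c was -0.0778, of miR-181b with miR-181c 0.0908 and of the c and d pair 0.46, not passing, and without the run the 2 called r were 0.55 and 0.53, not passing. miR-181a was 0.0377 with limma, and its sex contrast 0.0276 without the run. With length forms miR-181d-5p had 0.0401 in the sex contrast and -0.0336 in the sex difference. Without the run the exact shares of miR-181b and miR-181d-5p differed by 0.0176 and 1.03 points and the annotated starts of miR-181c and miR-181d-5p by 0.018 and 0.0156 points, the mean lengths of miR-181b and miR-181d-5p by 0.0139 and 0.0231 bases and the terminal A share of miR-181a by -0.0843 points, all against the main direction. DESeq2 called 9 family entries against 0.

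Leaving out 1 library gave -0.43 to -0.34 for miR-181c, 0.13 to 0.19 for miR-181b to miR-181a, 0.13 to 0.24 for miR-181d-5p to miR-181c, and -0.48 to -0.35 and -0.47 to -0.34 for the sex differences of the ratios. Directions changed among small shares, in points, for miR-181a shorter or longer (-1.01 to 0.349), 1 mismatch (-0.499 to 0.865) and 2 mismatches (-0.0126 to 5.27e-05), miR-181b 1 (-1.21 to 0.135) and 2 mismatches (-0.101 to 0.0556), miR-181c 1 mismatch (-0.735 to 0.705), the starts of miR-181c (-0.0413 to 5.34e-05) and miR-181d-5p (-0.0692 to 0.0446), and terminal A of miR-181a (-0.0288 to 0.0719). They also changed for mean length of miR-181b (-0.0295 to 0.00339) and miR-181d-5p (-0.0247 to 0.00311), the sex contrast of miR-181a (-0.0672 to 0.0342) and miR-181d-5p (-0.0523 to 0.0432), and the sex difference of miR-181c (-0.13 to 0.0362) and miR-181d-5p (-0.047 to 0.162). Terminal A passed for miR-181c with splits within sex (-0.185) and in 4 of 18 such analyses (-0.218 to -0.156), for miR-181b in 1 (-1.15 to -0.657) and for miR-181d-5p without the run (-2.08). The causes were not tested. Over all miRNAs the alternatives called 0 to 22. No paired analysis was possible because the labels give no replicate numbers shared between the classes. How depth limits the calls was not tested.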
